A study of Mus musculus with 6 samples.

Results

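The p53 module comprised 31 genes chosen by symbol: p53 itself (Trp53), its regulators and established target genes, without the BCL2 family and death receptor genes. All 31 were among the 24062 genes of the count table, and 30 of them were among the 12126 genes that passed the filter on low counts and were tested. The exception was Pltp, which had 1 read over the WT-labelled and 8 over the KO-labelled libraries. Gene expression was measured by stranded mRNA sequencing in mouse hematopoietic cells transformed with the fusion oncogene MLL-AF9, which drives a form of acute myeloid leukemia and was introduced with a retrovirus. They were derived from lineage negative cells, depleted of cells with mature blood markers. The WT-labelled group (3 libraries) came from A20+/+ Rosa Cre-ER cells and the KO-labelled group (3 libraries) from A20f/f Rosa Cre-ER cells, in which the A20 gene (Tnfaip3) is flanked by recombination sites. Both groups therefore carried MLL-AF9 and the tamoxifen-activated Cre recombinase, expressed from the broadly active Rosa locus, and both received 1 µM 4-hydroxytamoxifen for 48 h. All cells grew in medium with human IL-6, mouse IL-3 and mouse SCF. The labels do not say whether replicates came from separate mice, transductions or cultures, so a p-value reflects only how these libraries varied, and that variation may be technical.

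p53 is a transcription factor that is kept scarce by Mdm2, a ubiquitin ligase whose own gene it activates, and by the Mdm2 relative Mdm4. DNA damage, oncogene activity through the Arf product of Cdkn2a, and other stresses release it from this control, and it then activates genes of cell cycle arrest, DNA repair, metabolism and cell death. Much of this regulation acts on the protein, so the level of Trp53 mRNA says little about p53 activity. In blood progenitors p53 restrains self-renewal and removes damaged cells, and many leukemias evade it.

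p53 binds DNA at a pair of decamers, each matching the p53 consensus decamer. The consensus equals its own reverse complement, so a search covers both strands. It was searched in promoter windows from RefSeq (build GRCm38.p6), each from 250 bases before to 50 bases after an annotated start. Of the members, 26 had such a window, 41 windows in all; Trp53inp1, Zmat3, Rrm2b, Xpc and Ddb2 had none. A decamer was found in 11 of the 26 members, and in 9.55% of the 27025 genes with a window. Per window, the numbers were 12 of 41 and 8.36% of 32851. A pair of decamers at most 13 bases apart was found in Cdkn1a alone among the members and in 24 of all windows (0.073%). A match is a description of the letters and not evidence of binding. A window without a match says nothing of sites outside the window or of sites that differ from the consensus.

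The bases before the start are shown first for the 3 members that both held a decamer and were called higher below, Cdkn1a, Ccng1 and Mdm2, and for Plk2, which had the largest difference and no decamer in its window. Capitals mark the decamers, and each run reads 5′ to 3′ in the direction of the gene. The Cdkn1a run (chr17:29090729-29090978, plus strand) held its decamers 73 and 51 bases before the annotated start, with 12 bases between them. Another Cdkn1a window, at a further annotated start (chr17:29093519-29093818), held no decamer. In Ccng1 (chr11:40755287-40755536, minus strand) the decamer began 185 bases before the start. In Mdm2 (chr10:117710759-117711008, minus strand) it began 186 bases before the start, and the Plk2 run lay at chr13:110394794-110395043 (plus strand).
Cdkn1a: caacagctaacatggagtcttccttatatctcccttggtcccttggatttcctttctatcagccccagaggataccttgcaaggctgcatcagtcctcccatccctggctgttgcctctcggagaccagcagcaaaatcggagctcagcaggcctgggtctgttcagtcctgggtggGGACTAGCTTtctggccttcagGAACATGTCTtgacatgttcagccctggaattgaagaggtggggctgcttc
Ccng1: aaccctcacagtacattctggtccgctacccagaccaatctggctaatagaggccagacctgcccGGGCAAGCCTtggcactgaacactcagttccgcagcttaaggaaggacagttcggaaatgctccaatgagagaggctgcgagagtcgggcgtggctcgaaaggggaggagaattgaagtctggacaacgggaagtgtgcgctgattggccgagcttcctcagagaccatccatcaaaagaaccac
Mdm2: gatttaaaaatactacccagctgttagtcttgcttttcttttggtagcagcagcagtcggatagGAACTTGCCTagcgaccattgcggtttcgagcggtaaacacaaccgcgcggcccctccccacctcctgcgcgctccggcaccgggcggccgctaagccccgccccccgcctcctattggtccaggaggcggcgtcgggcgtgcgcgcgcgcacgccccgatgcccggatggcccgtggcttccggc
Plk2: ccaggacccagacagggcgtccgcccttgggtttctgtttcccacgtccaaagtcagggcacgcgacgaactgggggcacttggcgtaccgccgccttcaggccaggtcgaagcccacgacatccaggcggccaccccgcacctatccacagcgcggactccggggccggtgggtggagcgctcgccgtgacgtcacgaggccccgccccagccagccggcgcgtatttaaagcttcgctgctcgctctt

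The other 8 members with a decamer were not called higher or lower over the 6 libraries, so a decamer in the window was found in called and uncalled members. Their decamers are shown in capitals with 10 bases on either side, with the coordinates of the capitals.
Trp53, chr11:69580284-69580293, plus strand: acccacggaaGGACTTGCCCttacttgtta
Ppm1d, chr11:85311122-85311131, plus strand: gggcgggggcGAGCTTGCTCttcttgactc
Gtse1, chr15:85859955-85859964, plus strand: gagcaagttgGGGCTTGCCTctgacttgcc
Sesn1, chr10:41887266-41887275, plus strand: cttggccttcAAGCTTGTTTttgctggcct
Polk, chr13:96519409-96519418, minus strand: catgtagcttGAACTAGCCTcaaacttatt
Ei24, chr9:36797335-36797344, minus strand: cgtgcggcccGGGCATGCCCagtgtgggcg
Aen, chr7:78895937-78895946, plus strand: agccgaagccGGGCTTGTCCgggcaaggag
Abhd4, chr14:54259284-54259293, plus strand: cgacccggcaGGGCTTGTTTactatggctg

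Library totals ran from 16113320 to 25415274 counted reads, and a count of 3 corresponded to 0.125 to 0.179 CPM (reads scaled to a common library size, here by the trimmed mean of M values, TMM). Tnfaip3 stood at 7.39, 8.67 and 8.24 CPM under the WT label against 100.1, 74.1 and 79.1 CPM under the KO label. The targeted gene thus went against its label, although counts over the whole gene include exons outside the floxed part, and groups are named here by their labels. Whether the labels were exchanged, which would turn every direction given below, was not tested. Xist and the Y-linked gene Ddx3y were on opposite sides in the groups, with Xist at 564 to 2109 against 0 to 4.775 CPM, so donor sex and genotype label cannot be told apart. Replicate 1 stood apart in both groups: its chi-square per degree of freedom was 215 and 243 to the other WT-labelled libraries and 100 and 83.7 to the other KO-labelled libraries, against 26.2 and 2.42 between replicates 2 and 3. Gapdh stood at 2645 and 2716 CPM in the replicate 1 libraries of the WT-labelled and KO-labelled groups and at 166.7 to 254.4 CPM in the other 4 libraries. The myeloid progenitor markers Ptprc, Spi1, Itgam, Kit, Csf1r, Mpo, Elane and Cebpa summed to 1528 to 2225 CPM and 1807 to 2221 CPM. Within that sum single markers moved in opposite directions: Mpo fell from 200 ± 86.2 to 0.43 ± 0.21 CPM and Kit from 353.5 ± 48.0 to 101.7 ± 1.36 CPM, whereas Csf1r rose from 24.8 ± 19.0 to 207 ± 126 CPM. The rise of Csf1r was near the threshold (adjusted p = 0.043), with a log2 ratio of 6.96 in replicate 1 and 1.91 in replicates 2 and 3. On leaving out any library other than WT-labelled replicate 1, 0 of these markers were called higher. Elane had 257 ± 49.5 and 135 ± 58.7 CPM and did not pass (adjusted p = 0.095). Ms4a1, Cd3e, Tpsb2, Fcer1a and the globin genes Hbb-bt, Hbb-bs and Hba-a1 had 0 reads in all libraries. The lymphoid markers with reads were low, and of them Cd79b fell from 2.01 ± 0.147 to 0.347 ± 0.207 CPM and Cd4 rose from 0.038 ± 0.066 to 1.98 ± 2.30 CPM, with 4.64 CPM in KO-labelled replicate 1. Megakaryocyte markers (4 of 4 detected, led by Itga2b) summed to 26.6 to 41.1 CPM in the WT-labelled and 0.856 to 1.07 CPM under the KO label, and mast cell and basophil markers (2 of 4 detected) to 13.61 to 24.04 and 2.97 to 5.71 CPM. Fibroblast markers summed to 0.793 to 2.09 and 2.97 to 5.43 CPM, a rise carried by Pdgfrb (0.392 ± 0.144 to 3.48 ± 0.689 CPM), since Col1a1 had 0.922 ± 0.582 and 0.766 ± 0.688 CPM and Col1a2 and Col3a1 at most 3 reads in a library. The part of these marker differences in the results below was not tested, and in bulk RNA fewer cells of a type and less RNA per cell cannot be told apart.

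Cell cycle targets of p53 (Cdkn1a, Plk2, Plk3, Ccng1 and Psrc1), the growth regulator genes Phlda3 and Zmat3 and the tetraspanin gene Cd82 rose in the KO-labelled libraries, as did Mdm2, Ddit4 and Sesn2, while the damage-recognition genes Xpc and Ddb2 fell and Trp53 did not pass the test. Among the 30 members tested, 11 were higher and 2 lower, and 17 did not pass edgeR's quasi-likelihood test at a Benjamini-Hochberg adjusted p under 0.05 over all 12126 genes. Over all tested genes 27.3% were called, 13.7% higher and 13.7% lower. The members stood at 36.7% higher and 6.67% lower. Their median log2 fold change was 0.48, against -0.04 over all tested genes. At least 2-fold changes were called higher for 7 members (8.15% of all tested genes) and lower for 1 (8.27%). The KO-labelled libraries lay wholly above the WT-labelled libraries for 17 tested members (24.1% of all tested genes) and wholly below for 3 (23.5%), and the groups overlapped for 10. Levels below are TMM-scaled CPM per library and means ± SD (n = 3), and differences are KO-labelled minus WT-labelled on the log2 scale.

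**Figure D1:**
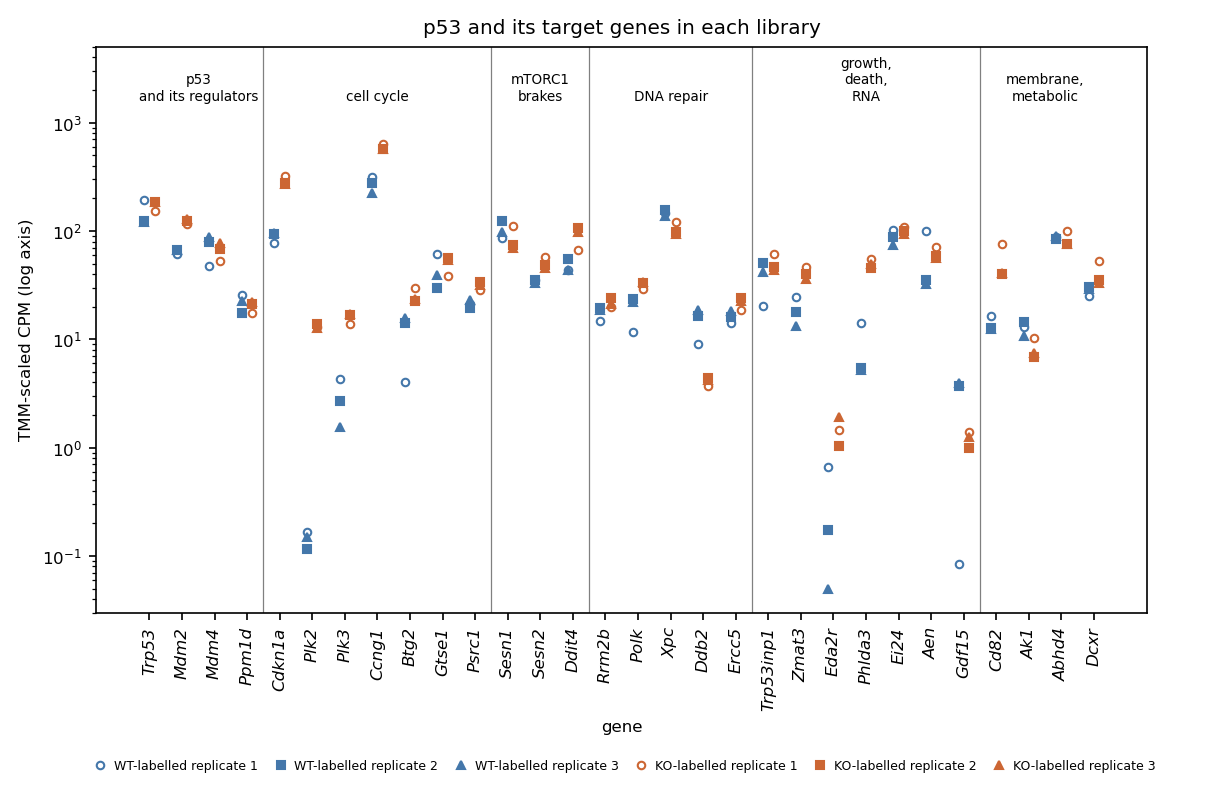
TMM-scaled CPM (log axis) of the 30 tested members in each library, ordered by role; blue points are WT-labelled, orange points KO-labelled, and open circles mark replicate 1. Plk2 shows the widest separation, from 0.11 to 0.17 CPM in the WT-labelled to 12.6 to 13.7 CPM under the KO label, while for Gdf15 and Aen WT-labelled replicate 1 lies far from the other WT-labelled libraries.

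Of Trp53 and its 3 direct regulators, Mdm2 alone passed the test. That share, 25%, was near the 27.3% of all tested genes that were called. Trp53 (chr11:69580359-69591873, plus strand, in GENCODE M21 on mm10) had 192, 123 and 122 CPM under the WT label against 153, 185 and 186 CPM under the KO label. The groups overlapped because WT-labelled replicate 1 was the highest library of all, and the difference was 0.26 (SE 0.21, 95% interval -0.23 to 0.75, adjusted p = 0.4). Without that library the difference was 0.52 and passed the test (adjusted p = 0.013), as it did in replicates 2 and 3 alone (0.58, adjusted p = 5.9e-04). Trp53 passed in no other setting. The difference was 0.14 with the counts of replicates 2 and 3 summed in both groups (adjusted p = 0.81). With a block for the replicate number it was 0.29 (adjusted p = 0.46). Mdm2 (chr10:117688875-117710758, minus strand), the ligase that degrades p53, had 61.1, 67.2 and 66.4 CPM under the WT label against 116, 124 and 130 CPM under the KO label. It rose by a log2 fold change of 0.93 (SE 0.11, adjusted p = 0.0014), with no overlap between the groups. Mdm4, which binds and inhibits p53, had 71.7 ± 21.9 and 66.0 ± 12.6 CPM (difference -0.12, 95% interval -0.73 to 0.49). Ppm1d, the phosphatase that switches off damage kinases and p53, had 22.0 ± 4.08 and 20.2 ± 2.41 CPM (difference -0.13, 95% interval -0.57 to 0.32). Neither passed the test, and the intervals leave out a 2-fold difference.

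Of the 7 cell cycle targets tested, 5 rose (71.4%) and 0 fell, with a median difference of 1.17. All tested genes stood at 13.7% either way and a median of -0.04. Cdkn1a (chr17:29090976-29100727, plus strand), which encodes the cyclin-dependent kinase inhibitor p21, had 77.1, 93.1 and 96.8 CPM under the WT label against 323, 278 and 273 CPM under the KO label. The groups were well apart, with a difference of 1.71 (SE 0.15, adjusted p = 3.1e-04). Ccng1 (chr11:40748552-40755311, minus strand), which encodes cyclin G1, a partner of a phosphatase that acts on Mdm2, had 316, 275 and 224 CPM and 630.1, 574 and 574 CPM. It rose by 1.13 (SE 0.17, adjusted p = 0.0035) and was the most abundant member per length in either group, at 77.3 and 169 CPM per kilobase of exon. Its call was lost when replicates 2 and 3 of each group were merged by summing their counts (adjusted p = 0.059).

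The polo-like kinase genes Plk2 and Plk3, stress-responsive relatives of the mitotic kinase Plk1, showed the largest proportional rises of the cell cycle members. Plk2 (chr13:110395046-110400844, plus strand) had 4, 2 and 3 reads in the WT-labelled libraries, or 0.17, 0.11 and 0.15 CPM, and 12.9, 13.7 and 12.6 CPM under the KO label. The WT-labelled level was thus at about the level of a count of 3, and Plk2 passed the low-count filter through its KO-labelled libraries alone. The ratio of mean CPM was 91.0, with a 95% counting interval of 48.0 to 199 that covers counting error in the WT-labelled reads only (log2 fold change 6.43, SE 0.28, adjusted p = 3e-05). Plk3 (chr4:117128655-117133963, minus strand) had 4.26, 2.70 and 1.54 CPM and 13.7, 16.9 and 17.0 CPM. It rose by 2.48 (SE 0.37, adjusted p = 0.0034), and the groups did not overlap.

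Psrc1, which encodes a microtubule-binding protein of the spindle, rose less. Psrc1 (chr3:108383839-108388231, plus strand) had 21.1, 19.6 and 23.04 CPM under the WT label against 28.5, 33.8 and 31.9 CPM under the KO label, a difference of 0.56 (SE 0.14, adjusted p = 0.023). The call did not survive omission of WT-labelled replicate 2 (adjusted p = 0.076) or of either KO-labelled replicate 2 or 3 (0.12 and 0.095), nor the use of library totals as the scaling (0.054). Btg2, an antiproliferative regulator of mRNA turnover, had 4.05, 14.1 and 15.6 CPM and 29.5, 22.8 and 23.6 CPM and did not pass (difference 1.17, SE 0.46, adjusted p = 0.1). Its KO-labelled libraries all lay above its WT-labelled libraries, as they did for 24.1% of all tested genes. Btg2 passed without WT-labelled replicate 1 (0.77, adjusted p = 0.0089), the library with the lowest level. Gtse1, a G2 phase protein that binds and restrains p53, had 61.6, 29.9 and 39.6 CPM and 38.7, 56.7 and 53.6 CPM (difference 0.18, 95% interval -0.48 to 0.85).

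**Figure D2:**
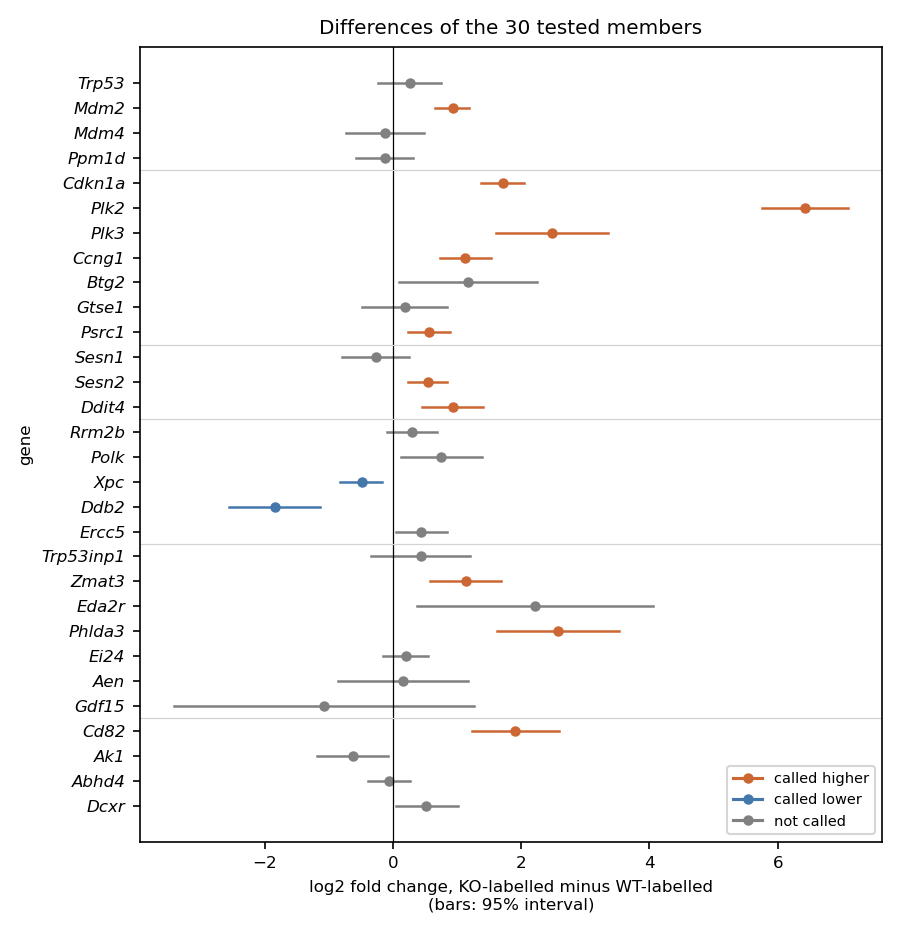
Log2 fold changes of the 30 tested members, KO-labelled minus WT-labelled, with bars for the 95% interval (edgeR quasi-likelihood fit); orange marks genes called higher, blue genes called lower and grey genes not called, and light lines separate the roles. The 11 orange genes run from 0.55 (Sesn2) to 6.43 (Plk2), and Ddb2 at -1.84 lies farthest below 0 among the called genes.

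Brakes on mTORC1, the kinase complex that couples nutrients to growth, had 2 members that rose of 3 tested (66.7%). The share called higher over all tested genes was 13.7%. Ddit4 (chr10:59949669-59951834, minus strand), which encodes the stress-induced inhibitor REDD1, had 43.6, 55.3 and 43.8 CPM under the WT label against 67.2, 107 and 98.3 CPM under the KO label. The difference was 0.93 (SE 0.20, adjusted p = 0.015), and it no longer passed after omission of WT-labelled replicate 3 (0.060), KO-labelled replicate 2 (0.058) or KO-labelled replicate 3 (0.058). Sesn2 (chr4:132492032-132510501, minus strand), a sestrin that relays amino acid shortage to mTORC1, had 35.0, 35.4 and 33.5 CPM and 57.7, 48.1 and 45.9 CPM. Its difference of 0.55 (SE 0.13, adjusted p = 0.021) was lost on leaving out any library other than WT-labelled replicate 1, with adjusted p from 0.051 to 0.070. Its paralog Sesn1 had 86.1, 123 and 98.2 CPM and 111, 73.7 and 69.8 CPM, overlapping groups with a difference of -0.27 (95% interval -0.79 to 0.25). In replicates 2 and 3 alone Sesn1 was lower (-0.64, adjusted p = 0.0047), in a fit that called 52.9% of all tested genes. The replicate 1 pair had a log2 ratio of 0.37 for Sesn1 and 0.72 for Sesn2. The sestrin genes thus took different directions in replicates 2 and 3 but not in the replicate 1 pair.

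Of the 5 DNA repair members tested, 0 rose and 2 fell (40%), against 13.7% either way over all tested genes. Ddb2 (chr2:91211572-91236982, minus strand), which encodes a subunit of the complex that recognises ultraviolet damage, had 9.14, 16.3 and 18.6 CPM under the WT label against 3.70, 4.37 and 4.18 CPM under the KO label. It fell by 1.84 on the log2 scale (SE 0.30, adjusted p = 0.0047), with no overlap between groups. That call was lost when replicates 2 and 3 were summed in each group (adjusted p = 0.076). Of the exon bases of Ddb2, 23.8% overlap exons of Acp2 on the opposite strand, and the strand setting of the counting is not given in the sources used here. Exons on the opposite strand also overlap 273 of 3553 exon bases of Cdkn1a and 84 of 2531 of Plk3. Acp2 differed in the other direction (45.9 ± 8.41 against 114 ± 30.2 CPM). Xpc (chr6:91489305-91515888, minus strand), the damage sensor that starts global nucleotide excision repair, had 145, 157 and 137 CPM and 120.2, 97.2 and 94.2 CPM. It fell by 0.49 (SE 0.14, adjusted p = 0.037), a call that depended on replicates 2 and 3 of both groups, with adjusted p from 0.064 to 0.16 when any 1 of those 4 libraries was omitted.

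The remaining repair and nucleotide supply genes had higher means in the KO-labelled group without passing the test. Polk, a DNA polymerase that copies past lesions, had 11.6, 23.4 and 22.3 CPM and 29.0, 33.4 and 33.8 CPM (difference 0.75, adjusted p = 0.08). Ercc5, the endonuclease that cuts on the 3′ side of a lesion, had 16.1 ± 1.99 and 21.8 ± 2.72 CPM (0.44, adjusted p = 0.096). Rrm2b, a subunit of ribonucleotide reductase, had 17.7 ± 2.47 and 21.7 ± 2.01 CPM (0.30, adjusted p = 0.23). For all 3, the lowest KO-labelled value exceeded the highest WT-labelled value, as it did for 24.1% of all tested genes.

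Of the 7 tested targets that regulate growth, death and RNA, 2 rose (28.6%) and 0 fell, against 13.7% either way over all tested genes. Phlda3 (chr1:135766119-135769136, plus strand), which competes with Akt for membrane lipids, had 14.2, 5.397 and 5.26 CPM under the WT label against 54.9, 45.1 and 49.1 CPM under the KO label, a difference of 2.58 (SE 0.40, adjusted p = 0.004). Zmat3 (chr3:32334792-32366014, minus strand), an RNA-binding zinc finger protein, had 24.5, 17.8 and 13.4 CPM and 46.4, 40.0 and 36.1 CPM, a difference of 1.14 (SE 0.24, adjusted p = 0.012). Both genes had separate groups, and Zmat3 no longer passed when KO-labelled replicate 1 was omitted (adjusted p = 0.052) and with replicates 2 and 3 summed in each group (0.080).

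WT-labelled replicate 1 differed most from the other WT-labelled libraries in members that did not pass. Gdf15, a secreted stress cytokine, had 2, 64 and 80 reads in the WT-labelled libraries, or 0.083, 3.67 and 3.97 CPM, and 1.397, 0.996 and 1.25 CPM under the KO label. Its groups overlapped (difference -1.07, 95% interval -3.42 to 1.27), and without WT-labelled replicate 1 it was lower in the KO-labelled libraries (-1.65, adjusted p = 0.0062). Aen, a nuclease of apoptotic DNA breakdown, had 99.6, 35.2 and 32.1 CPM and 71.6, 58.7 and 56.6 CPM. Aen differed by 0.16 over all libraries (adjusted p = 0.82) and by 0.89 without WT-labelled replicate 1 (adjusted p = 0.0025). Trp53inp1, a nuclear cofactor that promotes p53 phosphorylation, had 20.3, 51.1 and 41.8 CPM and 61.4, 46.9 and 43.5 CPM, so that only replicate 1 separated (log2 ratio 1.60, against -0.04 for replicates 2 and 3). Eda2r, a receptor of the TNF receptor superfamily, had 20 reads over the WT-labelled and 88 over the KO-labelled libraries (0.297 ± 0.327 and 1.46 ± 0.436 CPM; difference 2.22, adjusted p = 0.075). It passed with limma-voom (adjusted p = 0.045), with DESeq2 (0.036) and without WT-labelled replicate 1 (0.0058). Its WT-labelled libraries had 16, 3 and 1 reads, so without replicate 1 the WT-labelled level was at or below a count of 3. Eda2r met the low-count filter only with its KO-labelled libraries. Ei24, a membrane protein of the endoplasmic reticulum, had 88.3 ± 14.4 and 101.2 ± 7.80 CPM (0.20, 95% interval -0.16 to 0.55).

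Among the membrane and metabolic members, Cd82 rose and 3 tested genes did not pass. The share called was 25%, near the 27.3% of all tested genes. Cd82 (chr2:93419111-93463140, minus strand), a tetraspanin that organises adhesion receptors, had 16.5, 12.8 and 12.4 CPM under the WT label against 75.9, 40.2 and 41.1 CPM under the KO label. The difference was 1.91 (SE 0.29, adjusted p = 0.0034), and KO-labelled replicate 1 was the highest library. Ak1, an adenylate kinase that balances adenine nucleotides, had 12.7 ± 1.99 and 8.19 ± 1.83 CPM (-0.63, adjusted p = 0.086). All its KO-labelled libraries lay below the WT-labelled ones, as they did for 23.5% of all tested genes. Dcxr, a carbonyl and xylulose reductase, had 28.1 ± 2.64 and 40.4 ± 11.01 CPM (0.52, adjusted p = 0.1). Abhd4, a lipid hydrolase, had 87.5 ± 2.47 and 84.0 ± 13.3 CPM (-0.06, 95% interval -0.39 to 0.27). Pltp, the phospholipid transfer protein, stayed at or near the level of a count of 3 in both groups and was not compared.

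Per kilobase of exon, which allows levels of different genes to be compared, the order of the members changed between groups. Ccng1 led in both. In the WT-labelled group it was followed by Trp53 (36.0 CPM per kilobase), Ddit4 (27.1), Abhd4 (26.7), Xpc (26.6) and Sesn1 (25.7), with Cdkn1a in position 7 (25.1). The levels from Ddit4 to Cdkn1a were close to each other, and their order was not tested. In the KO-labelled group Cdkn1a was in position 2 (82.0), ahead of Ddit4 (51.8) and Trp53 (43.2), and Phlda3 moved from position 18 (5.30) to 6 (31.9). Ddb2 moved the other way, from position 17 (5.37) to 28 (1.49). Plk2 remained among the least abundant members despite its rise, at 2.91 CPM per kilobase in position 26 of 31. Exon lengths are unions over all annotated transcripts, so genes with long rarely used exons appear lower.

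Within groups, the members varied about as much as other genes. The median ratio of the highest to the lowest library over tested members was 1.44 in the WT-labelled and 1.27 in the KO-labelled group, against 1.48 and 1.23 over all tested genes. In the WT-labelled group the ratio was highest for Gdf15 (47.6), Eda2r (13.4), Btg2 (3.86) and Aen (3.10). In the KO-labelled group no tested member exceeded the 1.89 of Cd82.

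The contrast was also taken within the replicate 1 pair, where there is no replicate and thus no test, and within replicates 2 and 3. All 13 called members had the same direction in both. Of the 30 members with both ratios 21 had the same direction and 9 did not, namely Trp53, Mdm4, Ppm1d, Gtse1, Sesn1, Trp53inp1, Aen, Gdf15 and Abhd4. The median log2 ratio over these members was 0.67 in the replicate 1 pair and 0.58 in replicates 2 and 3. Mdm2 had nearly the same ratio in both (0.92 and 0.93), whereas Cdkn1a was more different in the replicate 1 pair (2.07 against 1.54) and Phlda3 and Plk3 less (1.96 against 3.14 and 1.69 against 3.00). Restricted to replicates 2 and 3, the fit called 18 members higher and 6 lower, where 25.8% of all 12201 tested genes were called higher and 27.1% lower (52.9% in all). Summing the counts of replicates 2 and 3 within both groups left 6 members higher and 0 lower, where 4.32% and 4.12% of all 12569 tested genes were called (8.44% in all). Those 6 higher members were Mdm2, Cdkn1a, Plk2, Plk3, Phlda3 and Cd82.

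**Figure D3:**
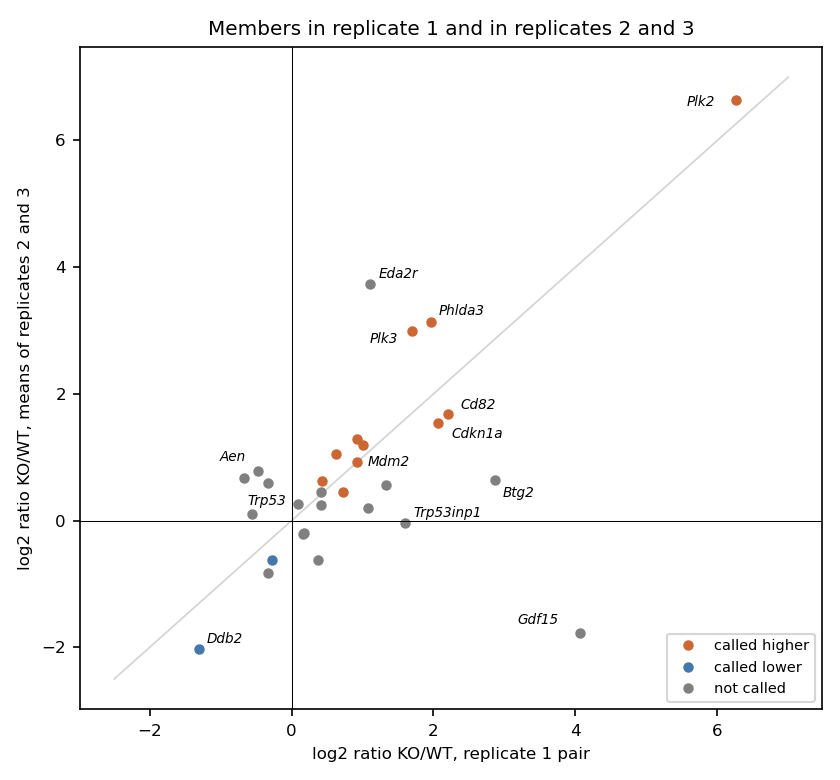
Log2 ratio of KO-labelled to WT-labelled TMM-scaled CPM for the 30 members with both ratios, in the replicate 1 pair (horizontal axis) and between the means of replicates 2 and 3 (vertical axis); colours give the call over all 6 libraries and the diagonal marks equal ratios. Called genes lie in the quadrants of equal direction, while Gdf15 has 4.06 in the replicate 1 pair and -1.77 in replicates 2 and 3.

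The other settings gave the following numbers of members, each with the percentage of all tested genes called. Omission of WT-labelled replicate 1 gave 16 members higher and 3 lower, with 42.8% of all tested genes called. For WT-labelled replicate 2 the numbers were 9 and 1 (19.8%) and for WT-labelled replicate 3 again 9 and 1 (20%). Omission of KO-labelled replicate 1 gave 9 and 2 (18.4%), of replicate 2 gave 8 and 1 (15%), and of replicate 3 gave 8 and 1 (15.4%). Among these 6 fits, members called higher were fewest in the fits with the lowest percentages. Summing replicates 2 and 3 in the KO-labelled group gave 8 and 1 (15.3%), and a block for the replicate number 9 and 1 (16.7%). DESeq2 called 14 and 2 (33.7%) and limma-voom 12 and 2 (27.1%). Scaling by library totals called 10 and 2 (24.8%). The counts were 11 and 2 with DESeq2 size factors in edgeR (27.4%), upper-quartile scaling (27.5%), no low-count filter (19.4%) and a filter of 1 CPM in 3 libraries (27.7%).

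**Figure D4:**
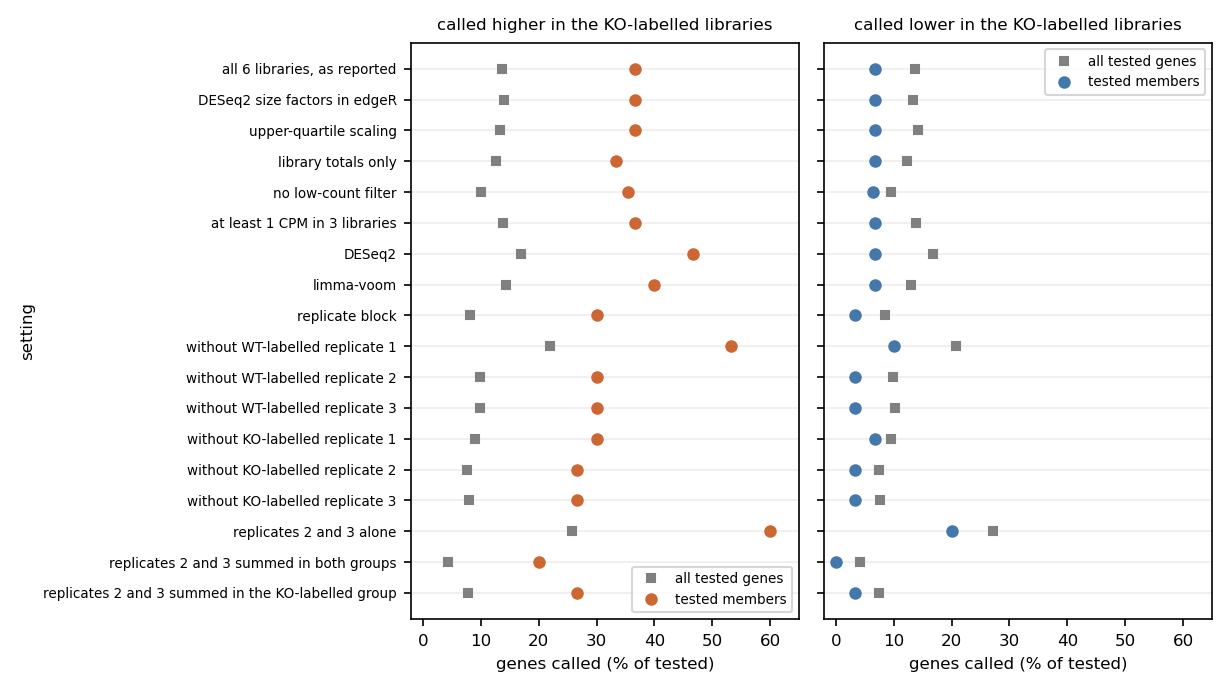
Percentage of tested members (coloured circles) and of all tested genes (grey squares) called higher (left) and lower (right) under each setting. Members called higher run from 20% with replicates 2 and 3 summed to 60% in replicates 2 and 3 alone, and the grey squares move with them, from 4.32% to 25.8%.

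Genes that act upstream of p53 or modify it went in both directions. Of 22 tested activators and modifiers 3 were higher (13.6%) and 6 lower (27.3%), with a median of -0.30, where all tested genes stood at 13.7% either way and -0.04. The share higher was thus near that of all genes. Cdkn2a, whose Arf product blocks Mdm2, rose from 18.5 ± 1.65 to 45.1 ± 13.3 CPM, and Rchy1, another ubiquitin ligase of p53, from 25.9 ± 2.11 to 43.2 ± 2.77 CPM (adjusted p = 0.0058 and 0.0057). Counts are for whole genes, so the rise of Cdkn2a cannot be assigned to its Arf transcript. Ppp1r13b, a cofactor that steers p53 to death genes, fell from 25.8 ± 5.08 to 6.66 ± 0.353 CPM, and the lysine methyltransferase gene Setd7 from 186 ± 13.6 to 88.2 ± 6.14 CPM (adjusted p = 5.7e-04 and 0.0011). The other genes called lower, named after their values were seen, were the damage kinase genes Atm (78.0 to 50.2 CPM), Chek1 (44.0 to 25.2 CPM) and Chek2 (39.8 to 30.4 CPM) and the adaptor gene Trp53bp1 (72.2 to 49.6 CPM). The damage kinase genes Atr (49.2 and 39.9 CPM, adjusted p = 0.36) and Prkdc (66.8 and 49.0 CPM, adjusted p = 0.086) did not pass. The kinase gene Hipk2 rose (35.9 to 62.7 CPM). The numbers were 4 and 11 in replicates 2 and 3 alone (all tested genes 25.8% and 27.1%), and omitting 1 library other than WT-labelled replicate 1 left 2 to 4 lower. The p53 relatives Trp63 and Trp73 had 6 and 0 reads over all libraries. Reads of Rchy1, Setd7 and Trp53bp1 could also come in part from exons on the opposite strand.

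Of 24 other established targets tested, outside the 31 members, 7 were higher (29.2%) and 2 lower (8.33%), with a median of 0.35, against 13.7% either way over all tested genes. Tigar, which lowers glycolytic flux, rose from 14.6 ± 1.69 to 42.5 ± 0.898 CPM, the autophagy gene Dram1 from 9.27 ± 4.24 to 61.4 ± 12.8 CPM, the stress sensor gene Gadd45a from 12.3 ± 1.94 to 28.2 ± 2.12 CPM and the lipid kinase gene Dgka from 14.9 ± 4.86 to 33.4 ± 1.84 CPM (adjusted p from 4e-04 to 0.014). The genes that fell, named after their values were seen, were Pml (56.4 to 37.0 CPM), the scaffold of nuclear bodies, and E2f7 (25.4 to 15.1 CPM), a repressor of S phase genes. Counts were 11 and 3 in replicates 2 and 3 alone (all tested genes 25.8% and 27.1%), and 4 and 0 without KO-labelled replicate 3 (all tested genes 7.89% and 7.54%). Omitting WT-labelled replicate 3, KO-labelled replicate 1 or KO-labelled replicate 2 also left 0 lower, and omitting WT-labelled replicate 2 left 1. Exons on the opposite strand overlap 337 of 1764 exon bases of Gadd45a. Reads of Gadd45a, Tigar, Dgka, Pml and E2f7 could thus come in part from the opposite strand.

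Of 8 death genes that p53 activates, 5 were higher (62.5%) and 1 lower (12.5%), against 13.7% either way over all tested genes. The death receptor gene Fas rose from 2.28 ± 1.15 to 21.5 ± 0.960 CPM, the pore-forming BCL2 family gene Bax from 155 ± 23.2 to 312 ± 9.82 CPM and Apaf1, the scaffold of the apoptosome, from 71.0 ± 7.15 to 144 ± 21.4 CPM (adjusted p from 0.0011 to 0.0035). Perp, a desmosome gene and the 1 called lower, had 224 reads over the WT-labelled and 2 over the KO-labelled libraries. It passed the low-count filter through its WT-labelled libraries alone. It lies at chr10:18845020-18857073, near the targeted gene Tnfaip3 (chr10:19000910-19015657). Whether the fall of Perp is tied to that position was not tested. The number lower was 2 without WT-labelled replicate 1 and in replicates 2 and 3 alone, and 1 was higher with replicates 2 and 3 summed in each group (all tested genes 4.32%).

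Cell cycle genes that p53 represses through p21 and the DREAM complex were mostly not called. Of 15 tested, 0 were higher and 2 lower (13.3%), with a median of -0.40 and 14 of 15 differences below 0. The share lower was near the 13.7% of all tested genes, of which 6407 of 12126 differences were below 0. Kif23, a motor of cell division, fell from 50.2 ± 3.602 to 31.6 ± 5.55 CPM (adjusted p = 0.022) and Foxm1, a transcription factor of mitotic genes, from 57.5 ± 6.94 to 35.6 ± 8.93 CPM (adjusted p = 0.049). The fit of replicates 2 and 3 alone gave 2 higher, 5 lower and a median of -0.09 (all tested genes 25.8% higher and 27.1% lower). Omitting WT-labelled replicate 3 or KO-labelled replicate 2 left 0 lower, and omitting any library among WT-labelled replicate 2, KO-labelled replicate 1 and KO-labelled replicate 3 left 1.

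**Figure D5:**
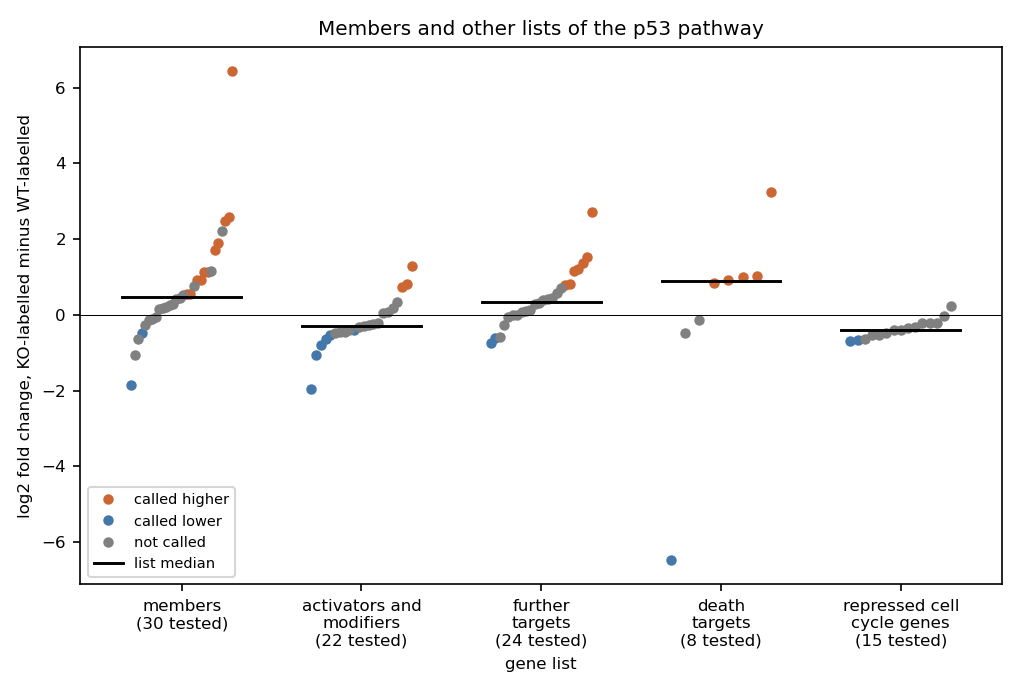
Log2 fold changes, KO-labelled minus WT-labelled, of the tested members and of 4 other lists of the p53 pathway, sorted within each list; black lines are list medians and colours give the call. The medians are 0.48 for the members, -0.30 for activators and modifiers, 0.35 for further targets, 0.89 for death targets, where the lowest point is Perp with 2 KO-labelled reads, and -0.40 for repressed cell cycle genes.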

How the data were processed

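The table deposited by the authors gives unnormalized read counts for every gene in 6 libraries. Per the labels' protocols, libraries were made with the TruSeq Stranded mRNA kit. Per the submitters' processing notes, FastQC 0.11.7, HISAT2 2.0.5 and featureCounts 1.5.2 were used with mm10. The gene annotation used, like the strand option, is not given in the sources used here. Counts were fitted with edgeR 4.0.16 under R 4.3.3 (TMM scaling, default low-count filter, robust quasi-likelihood test, Benjamini-Hochberg adjustment over all 12126 tested genes), KO-labelled against WT-labelled, 3 libraries each. An SE is the log2 fold change divided by the square root of the F statistic, and 95% intervals use the t distribution with the fit's degrees of freedom. Alternatives used DESeq2 1.42.0, limma 3.58.1 (voom), other scalings, filters and library subsets. The fits were tested on simulated data. CPM were scaled with TMM library sizes. Positions and exon lengths came from GENCODE M21, and promoter windows from RefSeq, on the same mouse assembly. Of the listed genes, 3 were matched by an older symbol. The members and lists were chosen with earlier results of these data known. Values in every library are given for Trp53 and each called member; other members are given by group means or, where named after their values were seen, by library. In each further list up to 4 called genes were named in order of p. Analyses ran in Python 3.11.15.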

Additional observations from a re-analysis of the deposited data

How the results depend on the processing

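Over 17 alternative settings 0 called members changed direction. Mdm2, Cdkn1a, Plk2, Plk3, Phlda3 and Cd82 kept their calls in all 17, with adjusted p up to 0.049. Leaving out each library in turn gave 8 to 16 members higher and 1 to 3 lower, beside 939 to 2712 genes higher and 916 to 2568 lower over all tested genes (1660 and 1656 with all libraries). Replicates 2 and 3 by themselves gave 18 and 6 members, with 3149 and 3309 genes in all. With replicates 2 and 3 summed in both groups the numbers were 6 and 0 with 543 and 518 genes, and summed in the KO-labelled group 8 and 1 with 982 and 945 genes. The replicate numbers are shared between groups, but deviations of libraries with different or equal numbers correlated at only -0.06 to 0.05, so the numbers were not taken to pair the libraries, although Gapdh was high in replicate 1 of both groups. A replicate block gave 9 members higher and 1 lower, with 989 and 1034 genes in all, and Psrc1, Sesn2 and Xpc did not pass (adjusted p = 0.075, 0.064 and 0.084). Other scalings, filters, DESeq2 and limma-voom gave 10 to 14 members higher and 2 lower. Depth limits Plk2, Eda2r and Pltp, whose lowest libraries had 2, 1 and 0 reads. Gdf15 had 2 reads in WT-labelled replicate 1, the library with the highest total, and 64 and 80 in the other WT-labelled libraries.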
